A study of Mus musculus with 32 samples.

Results

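The replication-dependent histone genes were followed as RNAs and as DNA targets in RADICL-seq, a proximity ligation method that joins RNA to nearby chromatin in crosslinked nuclei and sequences a short RNA tag with a short DNA tag. Members were all protein-coding genes with a symbol of the Hist1h to Hist4h series whose RNA had at least 1 listed interaction. Of 67 such genes in the annotation, 29 were listed, among 17784 RNA genes and 14286 protein-coding RNA genes in the whole series. DNA tags lay in genes of 47 such symbols, of which Hist1h2al and the pseudogene Hist3h2bb-ps are not among the 67. The libraries came from R08, a male mouse embryonic stem cell line (mESC), and Oli-neu, a mouse oligodendrocyte progenitor line (mOPC). In the groups called 1FA (3 libraries in each cell type), cells were fixed with 1% formaldehyde, and in mESC 2FA (3 libraries) with 2%. In mESC ActD4 (2 libraries), actinomycin D, an inhibitor of transcription, was given at 5 µg/ml for 4 h before fixation with 1% formaldehyde. In the NPM ("non-protein-mediated") groups (2 libraries in each cell type), the 1% formaldehyde crosslinks were reversed with proteinase K just before RNA was ligated. Replicates were batches of cells of different passage, and each cell type was 1 line, so cell type and line cannot be told apart.

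Replication-dependent histone genes lie in clusters, have short genes mostly without introns, and supply core histones (H2A, H2B, H3, H4) and linker histone (H1) during DNA replication. Their mRNAs carry no poly(A) tail. They end a few bases after a conserved stem-loop that is bound by the stem-loop binding protein Slbp, and the pre-mRNA is cut there with help from the U7 small nuclear RNP inside the histone locus body, a nuclear body organised by Npat.

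The stem-loop of each gene is shown because the RNA tags of the NPM libraries gathered at it. The sites below are 30 bases of the sense strand, 5′ to 3′, read from the GRCm38 (mm10) genome at matches to the canonical histone stem-loop motif, with the stem-loop in capitals.
Hist1h1c, chr13:23739512-23739527 (+): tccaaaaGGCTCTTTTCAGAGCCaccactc
Hist1h1d, chr13:23555787-23555802 (+): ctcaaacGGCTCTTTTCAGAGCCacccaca
Hist1h1b, chr13:21779837-21779852 (−): ccccaaaGGCTCTTTTCAGAGCCacctaga
Hist1h2bk, chr13:22036300-22036315 (+): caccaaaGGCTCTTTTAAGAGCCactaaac
Hist1h3c, chr13:23745047-23745062 (−): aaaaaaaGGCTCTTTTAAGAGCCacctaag
Hist1h4d, chr13:23581950-23581965 (+): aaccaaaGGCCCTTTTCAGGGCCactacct
Hist1h4b, chr13:23757366-23757381 (+): tacaaaaGGTCCTTTTCAGGACCactcact
Hist2h4, chr3:96262939-96262954 (−): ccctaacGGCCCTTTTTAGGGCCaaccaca
A stem-loop was found in 65 of the 67 genes. In the genes shown, the stem-loops of the H1 genes had the same letters, and those of the H4 genes differed from them and among themselves.

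Near-identical copies limit what short tags can show here. Windows of 27 bases were taken from the coding start to the processed 3′ end, or to the coding end where no stem-loop was found. A median of 22.5% of them were unique in the genome, allowing 1 mismatch, in the 29 listed genes and 9.31% in the genes not listed. By type, the median was 70.3% for H1, 20.2% for H4, 10.8% for H2A, 10.3% for H3 and 7.3% for H2B. The annotated genes listed were 5 of 6 for H1, 10 of 13 for H4, 7 of 18 for H2B, 4 of 12 for H3 and 3 of 18 for H2A. A gene that is not listed may therefore hold reads that could not be placed, and levels were not compared between genes.

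Promoters are shown for the H1 and H4 genes whose RNAs carried the most NPM interactions of their types in mESCs, since the DNA tags of these libraries gathered near the gene start. The windows run from 250 bases before to 50 after the RefSeq start (GRCm38), sense strand. Capitals mark TATAA on the sense strand, CCAAT on either strand (ATTGG when read on the other) and, in Hist1h1c, the H1 box AAACACA.
Hist1h1c, chr13:23738557-23738856 (+): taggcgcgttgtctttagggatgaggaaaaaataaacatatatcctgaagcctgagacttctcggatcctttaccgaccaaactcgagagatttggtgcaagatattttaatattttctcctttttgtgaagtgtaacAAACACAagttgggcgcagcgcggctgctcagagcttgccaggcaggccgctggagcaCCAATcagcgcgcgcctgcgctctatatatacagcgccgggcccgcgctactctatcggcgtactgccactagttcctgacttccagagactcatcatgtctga
Hist1h4d, chr13:23581318-23581617 (+): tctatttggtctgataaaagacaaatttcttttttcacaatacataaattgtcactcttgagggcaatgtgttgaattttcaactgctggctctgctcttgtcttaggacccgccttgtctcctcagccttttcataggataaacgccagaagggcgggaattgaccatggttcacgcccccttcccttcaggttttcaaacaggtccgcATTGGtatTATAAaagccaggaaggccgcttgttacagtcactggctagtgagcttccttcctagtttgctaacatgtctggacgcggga
Promoters of 61 of the 67 genes were matched. TATAA stood in 67.2% of them and in 18.2% of all 27025 promoters of the same length. CCAAT on either strand stood in 85.2% of histone promoters and 37.9% of all, with 100% of H1, H2A, H2B and H3 promoters but 25% of H4 promoters. The octamer ATTTGCAT on either strand was found in 41.2% of H2A and 37.5% of H2B promoters, in no H1, H3 or H4 promoter, and in 1.75% of all. AAACACA on the sense strand was in 5 of 6 H1 promoters and in 3.71% of all.

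Histone RNA made up a small part of the listed interactions, and the part was highest in the NPM libraries of each cell type. In mESC 1FA it was 0.00817%, 0.00618% and 0.00674% (218, 151 and 191 of 2667971, 2441619 and 2832717 interactions). The mESC 2FA libraries held 0.00673%, 0.00973% and 0.00942% (151, 198 and 237 interactions). In mESC ActD4 the share was 0.000955% and 0.00119% (4 and 3 interactions), below every mESC 1FA library. In mESC NPM it was 0.239% and 0.0760% (1038 and 463 interactions), so the 2 replicates lay far apart. Replicate 1 had been sequenced again, and its histone interactions were listed 1844 times with exact copies included (1.78 per interaction), against 530 (1.14) in replicate 2. The mOPC 1FA libraries held 0.000859%, 0.000522% and 0.00215% (19, 11 and 43 interactions), all below mESC 1FA. In mOPC NPM the share was 0.0242% and 0.0207% (308 and 246 interactions), above every 1FA library of either cell type and below both mESC NPM libraries.

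**Figure D1:**
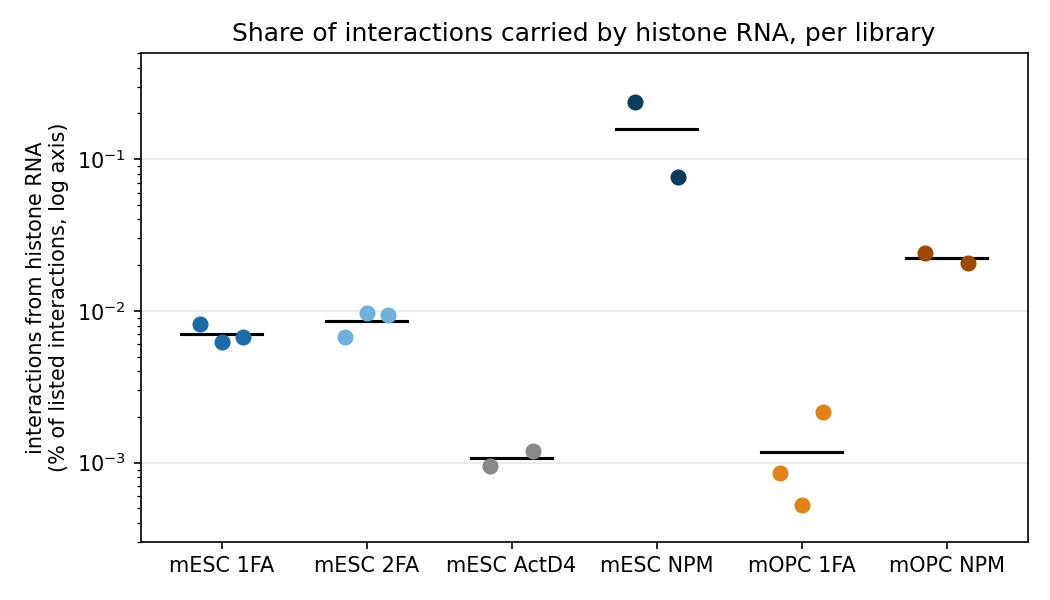
Percentage of listed interactions whose RNA tag is from a histone gene (log axis), 1 point per library, with the group mean as a line. The mESC NPM points (0.239% and 0.0760%) are above all others, and the mOPC 1FA and mESC ActD4 points are the lowest.

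The NPM libraries exceeded the 1FA libraries within each cell type by a mean of 0.0858 percentage points (two-sided exact permutation test within cell type, p = 0.02, the smallest this design can give, adjusted p = 0.14 over 7 comparisons). The single comparisons cannot go below 0.1 with 3 against 3 libraries or 0.2 with 3 against 2, are limited further with 2 against 2, and none passed 0.05 after adjustment. The difference between mOPC and mESC 1FA was −0.00586 points (exact p = 0.1), and that between mESC 2FA and 1FA was 0.00159 points (exact p = 0.3). The listed totals are not sequencing depth, because the files hold only interactions called significant on pooled replicates. A gene listed at 0 may thus still have had reads, the spread between replicates is understated, and no limit for a count of 0 was computed. In these bulk nuclei, fewer cells in replication and less histone RNA per cell cannot be told apart.

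Of the histone interactions in mESC 1FA, 56.3% came from H1, 23.8% from H2B, 12.3% from H4, 5.18% from H3 and 2.50% from H2A. In mESC NPM the H4 part was 48.4% and the H2B part 6.06%, with 40.2% from H1. In mOPC 1FA, 65.8% came from H2B and 9.59% each from H1 and H4. This H2B part was 33 tags of Hist1h2be, 29 upstream of the coding part and 4 beyond the processed end, and 15 of Hist1h2bc, all beyond that end, so it rested on a pair of genes with long annotated spans and on no tag in their coding parts. In mOPC NPM 41.2% came from H1, 34.8% from H4 and 19.7% from H2B, and 71 of the 109 H2B tags there were of Hist1h2be, all upstream of the coding part. No H3 member was listed in either mOPC group. These shares count interactions, not RNA per length, and 17, 20, 1, 22, 5 and 17 members were listed in mESC 1FA, 2FA, ActD4, NPM, mOPC 1FA and mOPC NPM.

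**Figure D2:**
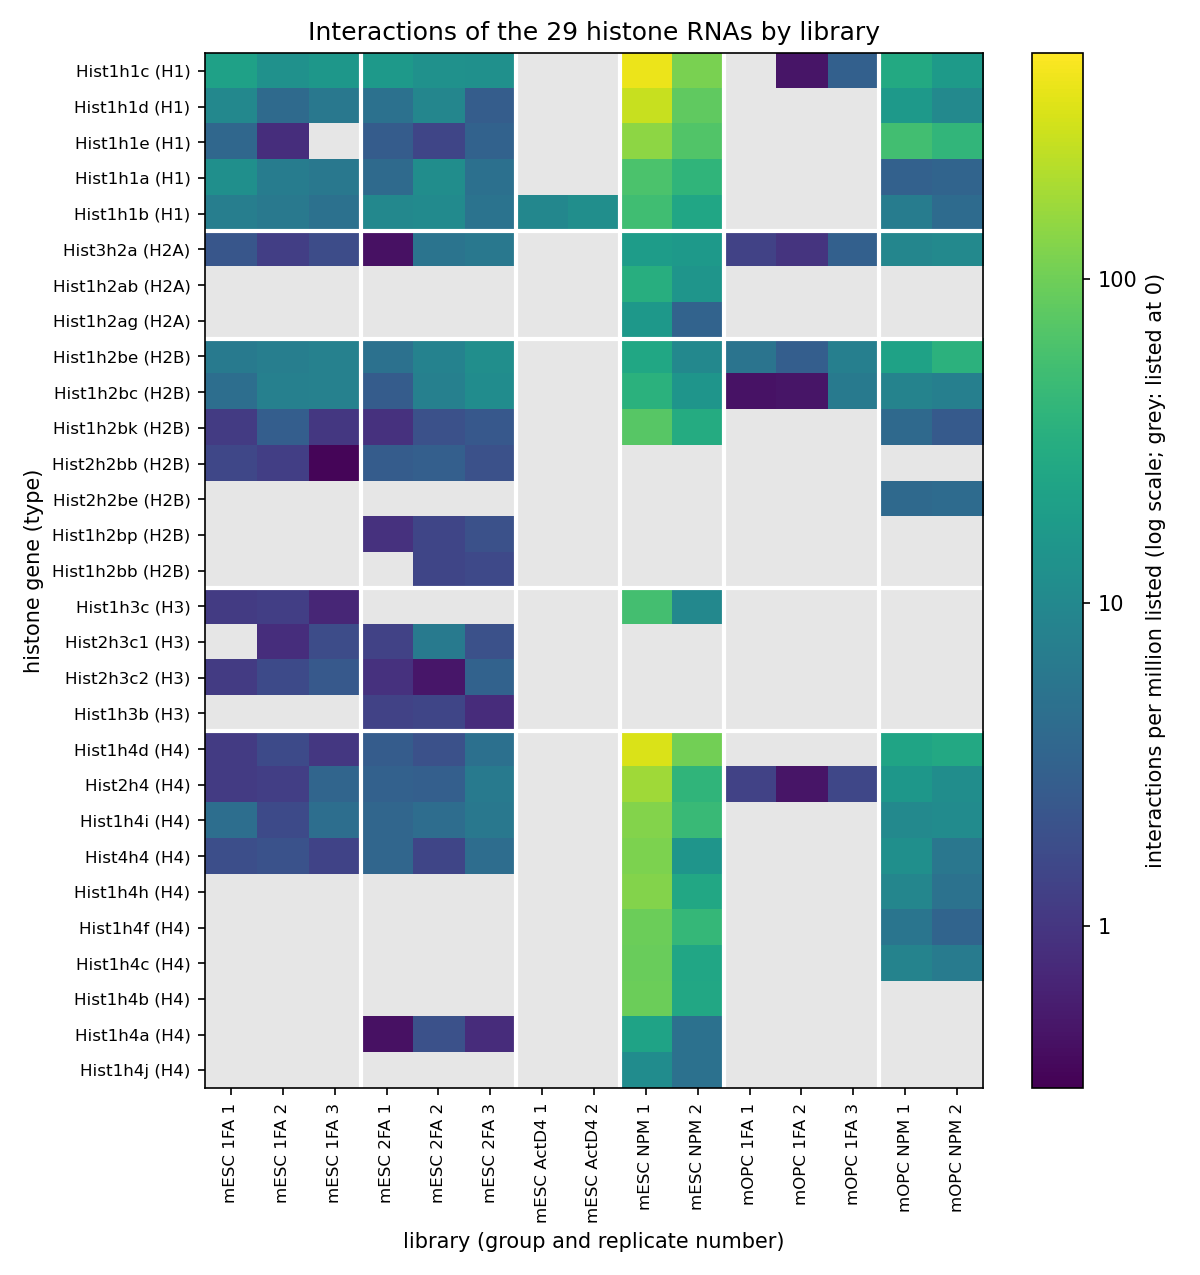
Interactions scaled to a common total of listed interactions (CPM) for each of the 29 histone RNAs (rows, by type) in each library (columns, by group), on a log colour scale, grey where a gene was listed at 0. H4 rows such as Hist1h4f and Hist1h4h are coloured only in the NPM columns, and Hist1h1b is the single row coloured in mESC ActD4.

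In NPM against 1FA in mESCs, most tested histone RNAs were higher in NPM, with H1 and H4 members far above their 1FA level. limma tested the log2 share of each RNA with scaling between libraries, and 14 of 15 histone genes were higher and 0 lower at an adjusted p under 0.05. Over all 10096 genes tested, 22.6% were higher and 27.2% lower, and the median of their log2 fold changes was 0.01. A gene was tested only if enough interactions were listed, and 8 of the 15 met the minimum through NPM alone, so they had to differ and the count is a description of those genes, not of all members.

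Among linker histones, Hist1h1c (H1.2, chr13:23738808-23740367) had 58, 32 and 44 interactions in mESC 1FA and 175 and 69 in mESC NPM, or 21.7, 13.1 and 15.5 CPM (counts scaled to a common total of listed interactions) against 403 and 113. Its groups did not overlap in CPM, and the log2 fold change was 3.17 ± 0.43 (SE, limma adjusted p = 0.000211). Hist1h1e (H1.4, chr13:23620629-23622558) had 10, 2 and 0 interactions in 1FA and 62 and 41 in NPM, a log2 fold change of 6.05 ± 0.89. It met the minimum through NPM alone, which fixed the direction, so its value is a description. The other linker histones named here met it in both groups. Hist1h1d (H1.3) went from 26, 10 and 17 interactions to 117 and 50, a log2 fold change of 4.01 ± 0.49 (limma adjusted p = 0.000110). Both Hist1h1e and Hist1h1d were higher in every NPM library. Hist1h1a (H1.1) and Hist1h1b (H1.5) rose by less, with 33, 17 and 17 against 27 and 24 interactions for Hist1h1a (log2 fold change 2.08 ± 0.38, limma adjusted p = 0.00135) and 20, 15 and 14 against 23 and 15 for Hist1h1b (2.01 ± 0.39, limma adjusted p = 0.00191). Without contacts to the own gene, 5 histone genes were left to test, of which 4 were higher and Hist1h1b was lower (−3.73). Over all 8072 genes left to test, 426 were higher and 5550 lower, with a median of −4.58.

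The H2A and H2B members, which form the outer dimers of the nucleosome, were mixed. Hist1h2bk had 3, 7 and 3 interactions in 1FA and 32 and 18 in NPM, a log2 fold change of 4.21 ± 0.50, and as it met the minimum through NPM alone, its direction was fixed. Hist1h2bc had 12, 19 and 23 against 15 and 9, which is higher relative to the smaller NPM totals by a log2 fold change of 1.24 ± 0.43 (limma adjusted p = 0.0351). That call was lost without the filter (limma adjusted p = 0.0661), with all 15 libraries in 1 fit (0.251), without any 1 of the mESC 1FA libraries (0.0586 to 0.115) and without mESC NPM replicate 1 (0.28). Hist1h2be had 17, 18 and 23 against 11 and 6 and did not pass the test (log2 fold change 0.60 ± 0.42, limma adjusted p = 0.255). Their annotated spans run over 5 kb and hold introns, Hist1h2be over chr13:23583670-23621124, which overlaps part of Hist1h1e. Of the tags of these genes, 55.7% in Hist1h2be and 92.1% in Hist1h2bc lay in an intron. None of the 27-base windows from the coding start to the processed end of Hist1h2be were unique. Hist3h2a, an H2A gene of the small cluster on chromosome 11, had 6, 3 and 5 interactions in 1FA and 8 and 10 in NPM, and Hist1h2ab was listed in mESC NPM only, with 14 and 9.

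H3 was represented by Hist1h3c, with 3, 3 and 2 interactions in mESC 1FA and 24 and 6 in NPM, and by members seen only where the crosslinks were intact at RNA ligation, such as Hist2h3c2 (3, 4 and 7 in 1FA, 2, 1 and 8 in 2FA). Counts of H3 genes were too low for a test in all comparisons listed here.

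H4 is the histone that pairs with H3 at the centre of the nucleosome, and its listed members had higher values in NPM. Hist1h4d (chr13:23581598-23582735) had 3, 4 and 3 interactions in 1FA and 145 and 64 in NPM, or 1.12, 1.64 and 1.06 CPM against 334 and 105. The log2 fold change of Hist1h4d was 6.44 ± 0.47, and both NPM libraries stood well clear of 1FA. Hist2h4 had 3, 3 and 10 against 76 and 24 interactions (log2 fold change 4.88 ± 0.63) and Hist1h4i 12, 4 and 13 against 56 and 28 (3.95 ± 0.53, limma adjusted p = 0.000203). Hist1h4b (42 and 16 in NPM), Hist1h4c (40 and 15), Hist1h4f (42 and 26) and Hist1h4h (56 and 16) were listed at 0 in all 1FA and 2FA libraries of mESCs, so no fold is given. These genes, Hist1h4d and Hist2h4 met the minimum through NPM alone, which fixed the direction of their calls, whereas Hist1h4i met it in both groups.

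In mOPC, NPM was again higher than 1FA for the histone genes that could be tested. Of 9 histone genes tested, 8 were higher and 0 lower, beside 29.7% higher and 25.7% lower among 10419 genes (median log2 fold change 0.20), and 7 of the 9 met the minimum through NPM alone. Hist1h1c had 0, 1 and 6 interactions in 1FA and 35 and 21 in NPM (log2 fold change 4.01 ± 0.93). Hist1h1e (69 and 48 in NPM), Hist1h1d (21 and 12), Hist1h4d (30 and 32) and Hist1h4i (13 and 13) were listed at 0 in mOPC 1FA. These genes, Hist1h1c, Hist2h4 and Hist3h2a met the minimum through NPM alone, so their calls had a fixed direction and are a description. Hist2h4 had 3, 1 and 3 against 20 and 14 (2.72 ± 0.40), Hist3h2a 3, 2 and 6 against 12 and 12 (1.71 ± 0.41) and Hist1h2be 12, 6 and 15 against 28 and 43 (1.71 ± 0.46, limma adjusted p = 0.0170). All 71 Hist1h2be tags in mOPC NPM lay upstream of the coding part, so this call rests on no tag in the histone coding part. Hist1h2bc had 1, 1 and 13 against 11 and 9 and did not pass (1.75, limma adjusted p = 0.141). The counts over all genes depend on the scaling: with listed totals in place of TMM factors, the median of all genes in NPM against 1FA went from 0.01 to 0.51 in mESC (4203 genes higher, 1326 lower) and from 0.20 to 0.95 in mOPC (6157 higher, 757 lower), and the histone calls stayed at 14 and 8 higher. Leaving out mOPC NPM replicate 1 left 3 calls of 7 tested, and leaving out replicate 2 left 5 of 9.

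Between cell types, the 4 H1 members tested (all but Hist1h1e among those listed) were lower in mOPC 1FA than in mESC 1FA. Of 6 histone genes tested, 4 were lower and 0 higher, beside 43.2% lower and 34.4% higher among 10256 genes (median log2 fold change −0.22). All 6 met the minimum through mESC 1FA alone, the group in which they were higher, so the calls describe these genes and say nothing of the other members. Hist1h1c was lower by a log2 fold change of −4.06 ± 0.90, and Hist1h1a, Hist1h1d and Hist1h1b were listed at 0 in mOPC 1FA. The H2B genes Hist1h2be (−0.06, limma adjusted p = 0.886) and Hist1h2bc (−1.79, limma adjusted p = 0.0835) did not pass.

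The NPM libraries of the same lines gave 11 of 17 histone genes lower in mOPC and 0 higher, beside 21% lower and 30.3% higher among 11043 genes (median log2 fold change 0.19). Of the 11, 7 (Hist1h1a, Hist1h1b, Hist1h2bk, Hist1h4b, Hist1h4c, Hist1h4f and Hist1h4h) met the minimum through mESC NPM alone, so their direction was fixed and the count is a description. The remaining 4 (Hist1h1c, Hist1h1d, Hist1h4d and Hist1h4i) met it in both groups, as did 2 that were not called. Among H1 genes tested through both groups, Hist1h1d fell by 3.10 ± 0.61 on the log2 scale (limma adjusted p = 0.0107) and Hist1h1c fell by 2.87 ± 0.62 (limma adjusted p = 0.0150). Hist1h1a, with 27 and 24 interactions in mESC NPM and 4 and 4 in mOPC NPM, had a log2 fold change of −3.36 ± 0.35, and Hist1h1b one of −2.24 ± 0.48. Hist1h1e, with 62 and 41 against 69 and 48, did not pass (−0.68, limma adjusted p = 0.203), nor did Hist1h2be, with 11 and 6 against 28 and 43 (1.17, limma adjusted p = 0.137), or Hist3h2a (−0.44, limma adjusted p = 0.261). Among H4 genes, Hist1h4d fell by 2.49 ± 0.55 (limma adjusted p = 0.0163), Hist1h4f had a log2 fold change of −3.37 ± 0.50, and Hist1h4b was listed at 0 in mOPC NPM. Scaled to listed totals, the median of all genes between cell types was −0.73 in 1FA (2604 higher, 5621 lower) and −0.18 in NPM (2680 higher, 3242 lower), with 5 and 12 histone genes lower. The NPM count rested on single libraries: 2 calls without mOPC NPM replicate 1, 3 without mOPC NPM replicate 2, 6 without mESC NPM replicate 1 and 14 without mESC NPM replicate 2.

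After actinomycin D, 6 of the 7 histone genes tested against mESC 1FA were lower and 0 higher, beside 41.3% lower and 19.5% higher among 9896 genes (median log2 fold change −0.31). All 7 met the minimum through mESC 1FA alone, so these calls, too, describe the genes tested and no others. The 6 called (Hist1h1a, Hist1h1c, Hist1h1d, Hist1h2bc, Hist1h2be and Hist1h4i) were listed at 0 in both ActD4 libraries. The remaining gene, Hist1h1b, held all 7 histone interactions of these libraries. It had 4 and 3 interactions, or 9.55 and 11.9 CPM, against 7.50, 6.14 and 4.94 CPM in 1FA, a log2 fold change of 0.67 ± 0.31 that did not pass (limma adjusted p = 0.0996). The ActD4 libraries list 418781 and 251802 interactions, fewer than any mESC 1FA library, and the part of this in the zeros was not tested.

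With 2% in place of 1% formaldehyde, limma called 0 of 7 histone genes in either direction, beside 0.0201% higher and 0.01% lower among 9962 genes. At an unadjusted p under 0.05, limma gave 0 histone genes, the smallest p being 0.305, and 1152 of all genes. The log2 fold changes of the 7 lay between −0.43 and 0.41. With the replicate number as a block, 451 genes were called in all (164 higher, 287 lower), and 0 histone genes.

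RNA tags at the processed 3′ end were more frequent in the NPM libraries, and in mESC NPM they were most of the histone tags. A tag was counted there when its centre lay 8 to 17 nt before the last base of the stem-loop, where the centre of a tag of about 27 nt would be if the tag ended with the mature mRNA. In mESC NPM 78.3% and 61.1% of histone tags (813 and 283) were there, and in mOPC NPM 31.2% and 38.2% (96 and 94). The mESC 1FA libraries had 2.29%, 1.32% and 2.62% there, and the mESC 2FA libraries 8.61%, 3.03% and 5.91%. Those of mOPC 1FA had 0%, 9.09% and 0%, where 9.09% was 1 tag. Each NPM library was thus above each library with intact crosslinks. The most frequent centre was 11 nt before the last base, with 326 of 1096 such tags in mESC NPM and 64 of 190 in mOPC NPM. The measure was chosen after the tags had been seen, so no test is given.

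**Figure D3:**
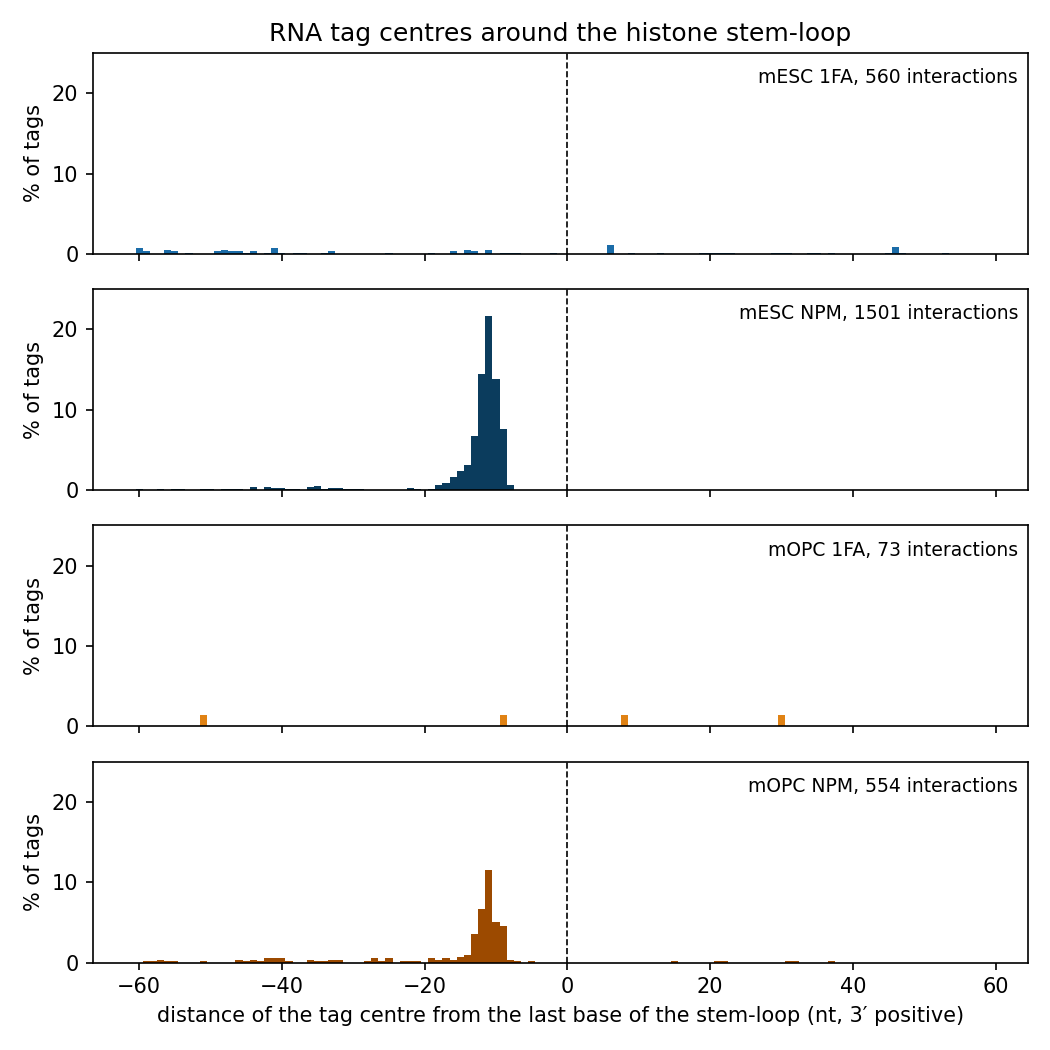
Percentage of histone RNA tags by the distance of the tag centre from the last base of the stem-loop (nt, 3′ positive), for 4 groups with libraries summed. Both NPM panels peak at 11 nt before the last base, and the 1FA panels have no such peak.

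Tags in mESC 1FA lay mainly in the coding part and past the processed end. There 70.2%, 52.3% and 44.5% of histone tags were in the coding part, and 21.1%, 39.1% and 43.5% beyond the processed end, that is, downstream of where the pre-mRNA is cut. In mOPC 1FA 57.9%, 45.5% and 30.2% lay upstream of the coding part and 0%, 0% and 9.30% in it, in all 29 and 4 of 73 tags. All 29 upstream tags came from Hist1h2be, whose long span overlaps part of Hist1h1e. In mOPC NPM 42.5% and 29.7% were in the coding part. Of the tags beyond that end in mESC 1FA and 2FA (188 and 251), 99 came from Hist1h1c, 99 from Hist1h2bc, 49 from Hist1h2be, 41 from Hist1h4i, 36 from Hist3h2a and 32 from Hist2h4. Of these genes, Hist1h2bc and Hist1h2be have spans over 5 kb that go on past the stem-loop. In mESC NPM 2.22% and 6.48% were beyond that end, and in mOPC NPM 15.3% and 11.8%, below each 1FA library of the same cell type (42.1%, 36.4% and 60.5% in mOPC 1FA). Many NPM tags shared a position: 81 interactions of Hist1h1c in mESC NPM replicate 1 were centred on the same base. With each distinct RNA position counted once, 33.7% and 30.5% of mESC NPM and 16.1% and 19.6% of mOPC NPM tags were at the stem-loop end, against 1.46% to 2.92% in mESC 1FA.

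By gene in mESC NPM, 56 of 58 tags of Hist1h4b (96.6%), 193 of 209 of Hist1h4d (92.3%), 86.0% of Hist1h2bk and 197 of 244 of Hist1h1c (80.7%) were at the stem-loop end. In mOPC NPM, 90.3% of Hist1h4d and 46.4% of Hist1h1c tags were there. Over the mESC 1FA and 2FA libraries, 4 of 230 Hist1h1c tags were there, but 16 of 32 of Hist1h4d (50%) and 20% of Hist1h2bk. Genes thus differed with intact crosslinks too, and the part of the mix of genes in the pooled shares was not tested. The share was 14.6% for Hist1h1e and 0% for Hist1h1a, whose last 27 bases occur in 11 and 8 copies in the genome. It was also 0% for Hist1h1b, whose last 27 bases are unique but whose stem-loop lies past the annotated gene end at position 21779883. Of 24 genes with unique last 27 bases, 14 had NPM tags at the stem-loop end (910 tags), and of the 41 others 5 had any (376 tags). Among the 24, the stem-loop lies past the annotated gene end not only in Hist1h1b but also in others, such as Hist1h2bl, Hist1h3h, Hist1h4k and Hist2h2bb. Tags at the stem-loop end may not have been assigned to such genes. For the annotated gene end, which extends past the stem-loop in many genes, the share of histone tags taken to end within 5 nt of it was between 0% and 1.32% in every library.

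The DNA tags of the same interactions lay close to the gene start. From 100 bp before to 99 bp after the coding start were 62.0% and 59.2% of the DNA tags in cis in mESC NPM (561 of 905 and 242 of 409) and 44.8% and 41.9% in mOPC NPM. The mESC 1FA libraries had 5.96%, 5.30% and 3.14% there, and the mESC 2FA libraries 8.61%, 10.6% and 9.70%. Those of mOPC 1FA had 5.26%, 9.09% and 2.33%. Each NPM library again stood above each other library, and with distinct DNA positions counted once the NPM shares were 60.5%, 63.7%, 49.1% and 45.1%. A further group of DNA tags lay in the bins of 100 bp that start 300, 400 and 500 bp after the coding start.

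**Figure D4:**
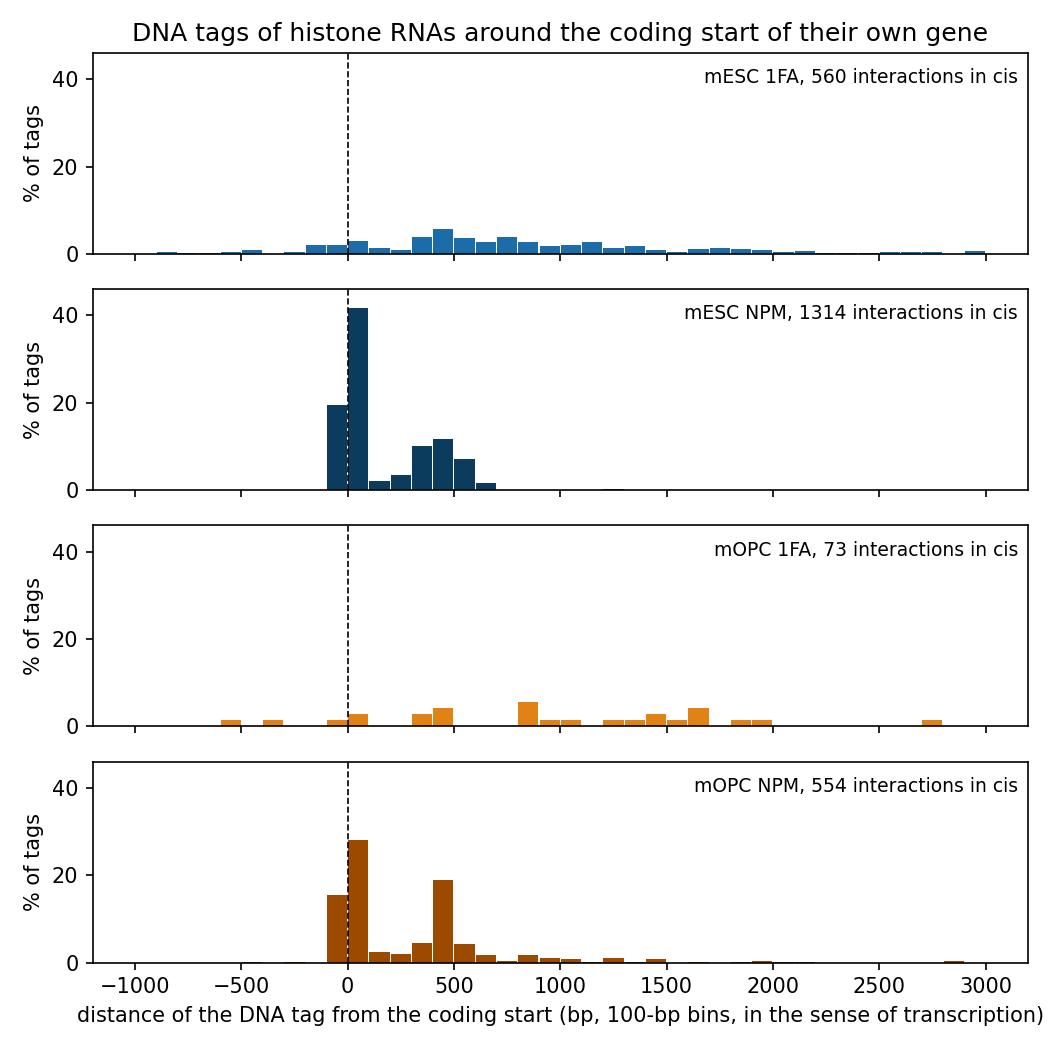
Percentage of DNA tags of histone RNAs in cis by distance from the coding start of the RNA's own gene (bp, in bins of 100 bp), for 4 groups with libraries summed. Both NPM panels have their highest bars beside the coding start and a lower maximum in the bins that start 300, 400 and 500 bp after it, and the 1FA panels are spread over more than 1 kb.

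The 3′ end of the RNA and the 5′ end of the gene were joined in the same interactions. In mESC NPM, of the interactions in cis with the RNA tag at the stem-loop end, 489 of 693 (70.6%) and 184 of 238 (77.3%) had their DNA tag at the coding start, against 34.0% and 33.9% of those with the RNA tag elsewhere. In mOPC NPM the values were 82.3% and 78.7% against 27.8% and 19.1%. These contrasts pool genes that differ in both shares. In mESC NPM, 14.6% of the RNA tags of Hist1h1e and 91.2% of those of Hist1h4f were at the stem-loop end. The part of the mix of genes in the contrasts was not tested. The median distance between RNA and DNA tag of stem-loop interactions in cis was 333 and 339.5 bp in mESC NPM and 331 and 332 bp in mOPC NPM. By gene in mESC NPM, 54 of 54 DNA tags in cis of Hist1h4f, 60 of 62 of Hist1h4h (96.8%), 147 of 155 of Hist1h4d (94.8%) and 77 of 91 of Hist2h4 (84.6%) were at the coding start, but 33.6% of Hist1h1c and 12.6% of Hist1h1e. A further 14 DNA tags of Hist1h4f and 54 of Hist1h4d lay on other chromosomes. Other protein-coding RNAs of the NPM libraries had 1.11% to 1.62% of DNA tags within 200 bp after the gene start, where histone RNAs had 47.7% and 43.2% in mESC NPM and 38.6% and 37% in mOPC NPM. Histone genes are shorter than most, and the part of gene length in this difference was not tested. DNA tags also had to be placed uniquely, and few windows from the coding start to the processed end of most H4 genes were unique (20.2% in Hist1h4f). The part of this in where DNA tags were listed was not tested either.

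For contacts within and between clusters, histone genes less than 250 kb apart were joined into blocks. This gave chr13:21715763-22043676 (23 genes, 6 listed) and chr13:23531050-23934851 (31 genes, 16 listed), which hold the Hist1 genes, chr3:96219865-96270132 (10 genes, 5 listed) with the Hist2 genes, chr11:58948920-58956830 (2 genes, 1 listed) with Hist3, and chr6:136801553-136804415 with Hist4h4 alone. No histone RNA was listed with a DNA tag in another block than its own in any of the 15 libraries, so every contact between clusters stood at 0. Listed contacts with other chromosomes were rare for other protein-coding RNAs as well, 0.115% to 0.223% in mESC 1FA and 0.0733% to 0.149% in mESC 2FA. With 560 and 586 histone interactions in these groups, the 0 does not show that contacts between clusters are absent.

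By group mean, contacts with the own block outside the gene were most frequent in mESC 1FA. There 65.6%, 43.7% and 58.6% of histone interactions had the DNA tag in the block outside the own gene, and 29.8%, 53.6% and 37.7% in the own gene. In mESC 2FA 41.7%, 37.4% and 35.0% were in the block outside the gene, below every 1FA library (difference −17.9 points, exact permutation p = 0.1, the smallest possible). The mOPC 1FA libraries held 21.1%, 9.09% and 23.3% there (difference from mESC 1FA −38.2 points, exact permutation p = 0.1, the smallest possible). Of the 73 interactions in mOPC 1FA, 33 were of Hist1h2be and 15 of Hist1h2bc. Their annotated spans are 37455 and 8710 bp, so a DNA tag many kb away can still count as in the own gene. The part of the mix of genes in this difference was not tested. In mESC ActD4 it was 50% and 33.3%, or 2 of 4 and 1 of 3 interactions, the first above mESC 1FA replicate 2. In mESC NPM it was 4.91% and 8.21%, and in mOPC NPM 8.12% and 9.35%. Over both cell types NPM was lower than 1FA by a mean of −29.2 points (exact permutation test within cell type, p = 0.04, adjusted p = 0.233). Other protein-coding RNAs also lay mostly in their own gene in NPM, with 95.2% to 97.1% in mESC and 98.4% to 98.7% in mOPC. In 1FA those shares were 31.7% to 34.4% and 37.5% to 41.8%, so the rise of own-gene contacts in NPM was not limited to histone RNAs.

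**Figure D5:**
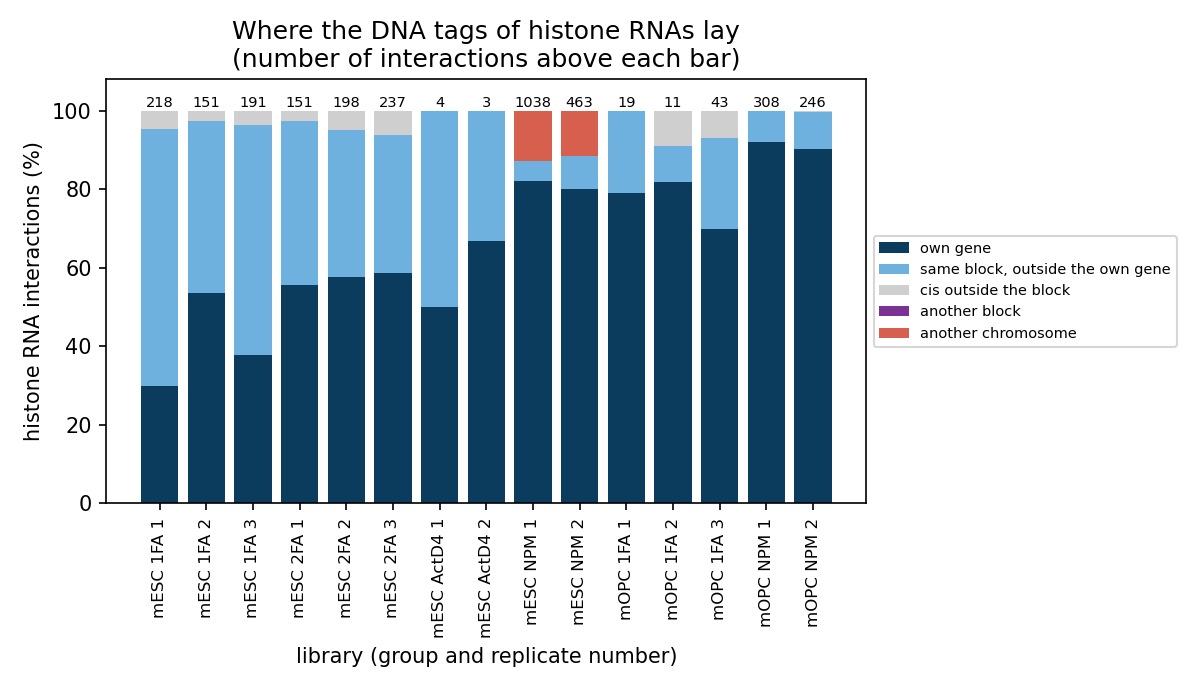
Percentage of histone RNA interactions by place of the DNA tag, stacked to 100% for each library, with the number of interactions above each bar. The light blue part (same block outside the own gene) is largest in mESC 1FA replicate 1 (65.6%), the red part (another chromosome) is seen only in the 2 mESC NPM libraries, and no bar has a purple part (another block).

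Within blocks, 44 interactions joined a histone RNA to another histone gene, of which mESC 1FA held 33, mESC 2FA 9, mESC NPM 1 and mOPC 1FA 1. The 33 involved 9 RNAs and 10 DNA genes at up to 133184 bp, and 19 of them were in mESC 1FA replicate 1, 6 in replicate 2 and 8 in replicate 3. Hist1h1c RNA was joined to Hist1h2be DNA 7 times (119209 to 133184 bp apart), to Hist1h2bc 4 times and to Hist1h3c 3 times, all in mESC 1FA. The 7 contacts with Hist1h2be were all in replicate 1. Hist1h1e RNA was joined to Hist1h2be 7 times and Hist1h1d RNA to Hist1h2be 4 times. The span of Hist1h2be is long and overlaps part of Hist1h1e, so these contacts may lie nearer to other genes. Histone contacts were short beside those of other RNAs: 43.6%, 59.6% and 40.8% of those in cis in mESC 1FA were within 1 kb of the RNA tag (median distance 1487, 623 and 1953 bp), against 3.91% to 5.78% of the contacts in cis of all protein-coding RNAs, and 99.2% to 100% of those in cis in NPM against 87.0% to 91.8%.

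On other chromosomes, histone RNA had DNA tags in the mESC NPM libraries only, with 133 (12.8%) and 54 (11.7%), against 2.45% and 4.43% for other protein-coding RNAs in the same libraries. Of these, 102 and 51 fell in chr17:39843023-39848792, a region annotated with the lincRNA gene Gm26917. That region took 9.83% and 11.0% of the histone interactions, and 2.62% and 4.59% of the interactions of all RNAs in the same libraries. A further 6 and 2 fell in chr11:109011697-109011917 and 25 and 1 in 1 bin on another chromosome. Hist1h4d (54), Hist1h1c (33), Hist1h1d (18) and Hist1h3c (17) led the list. The mESC NPM libraries against mESC 1FA differed by 12.2 points (exact permutation p = 0.2, the smallest possible).

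As DNA targets, histone genes received mostly their own RNA in both NPM groups and in mESC 1FA and 2FA, and mostly other RNAs in mOPC 1FA and ActD4. In mESC 1FA 379 DNA tags lay in histone genes, 218 with the RNA of the same gene, 33 with another histone RNA, 65 with another RNA in cis and 63 with an RNA of another chromosome. Of the 63, 54 were Gm22973, an snRNA gene on chromosome 12 (17, 22 and 15 per library), and 9 were Snord118, the U8 snoRNA. Gm22973 was also frequent in all contacts between chromosomes of these libraries, with 49.1%, 67.3% and 70.4% of them, against 94.4%, 84.6% and 78.9% of those in histone genes. Malat1, a nuclear lincRNA, gave 42.4%, 22.4% and 22.8% of all such contacts in mESC 1FA and 0 in histone genes. Gm22973 gave 71 of the 81 such contacts of histone genes in mESC 2FA and 8 of 10 in ActD4, where 4 of 15 DNA tags had the own RNA. In mOPC 1FA 15, 9 and 30 DNA tags had the own RNA (17.2%, 13.6% and 29.1%). Malat1 gave 111 (46, 32 and 33) of the 114 contacts with an RNA of another chromosome there, or 95.8%, 97.0% and 100%, close to its 94.4%, 93.3% and 91.6% of all contacts between chromosomes in the same libraries. In mESC NPM 1224 of 1329 DNA tags had the own RNA, and 104 (87 and 17) came from Gm42743, a lincRNA gene that overlaps Hist2h2bb. In mOPC NPM 505 of 524 had the own RNA and 16 (8 and 8) came from Gm42743. From the neighbourhood, Otud7b next to the Hist2 genes gave 14, 4 and 15 contacts in mESC 1FA, 2FA and mOPC 1FA, Carmil1 next to Hist1 12 in mESC 1FA and 5 in 2FA, and Atf7ip near Hist4h4 4, 8 and 8.

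The other genes of the pathway are given as lists, with their counts beside those of all genes above. In these lists, too, a gene that met the minimum through its higher group alone had a fixed direction, so the counts are descriptions. Of the 16 genes listed for histone mRNA processing and the histone locus body, 9 were lower and 1 higher of 14 tested in mOPC 1FA against mESC 1FA (median log2 fold change −1.46, all genes −0.22). Among the lower was Eri1, a nuclease that degrades histone mRNA (−2.40 ± 0.23, limma adjusted p = 2.44e-05), which met the minimum in both groups. Casp8ap2 (FLASH, −2.95 ± 0.33) had 19, 8 and 21 interactions in mOPC 1FA. It met the minimum through mESC 1FA alone, as did Cpsf2, Cstf2 and Zfp473 among others, so its value is a description. In the NPM libraries 7 of 14 were lower in mOPC and 0 higher (median −0.87, all genes 0.19), with Npat at −1.59 ± 0.28 (limma adjusted p = 0.00735). After actinomycin D 8 were higher and 2 lower of 14 (median 0.67, all genes −0.31), with Slbp at 1.30 ± 0.22 (limma adjusted p = 0.00175). In NPM against 1FA 6 of 14 were higher in mESC and 7 of 13 in mOPC, 0 lower in either (medians 0.44 and 0.94, all genes 0.01 and 0.20), beside 22.6% higher and 27.2% lower over all genes in mESC and 29.7% and 25.7% in mOPC. Of those higher in mOPC, Cpsf2 and Cstf2 met the minimum through NPM alone, so their direction was fixed. The other shares over all genes were 43.2% lower and 34.4% higher between the cell types in 1FA, 21% and 30.3% in NPM, and 41.3% and 19.5% after actinomycin D.

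Replication-independent variant histones, which are mostly made from polyadenylated mRNA, went both ways. In mESC NPM against 1FA 3 of 9 were higher and 2 lower (median −0.21), beside 22.6% and 27.2% over all genes, H1f0 by 2.75 ± 0.42 (limma adjusted p = 0.000428) and H2afx, whose mRNA can also end at a stem-loop, by 2.71 ± 0.36 (limma adjusted p = 0.000181), while H2afy, the macroH2A gene, was at −1.27 ± 0.17 (limma adjusted p = 0.000189). In mOPC 3 of 8 were higher and 2 lower (median 0.43), beside 29.7% and 25.7% over all genes. H1f0 had 7, 2 and 7 interactions in mOPC 1FA and 145 and 54 in NPM (log2 fold change 4.11 ± 0.60), and H2afx was listed at 0 in 1FA and had 28 and 16 in NPM. Both met the minimum through NPM alone, so their direction was fixed. Between cell types in 1FA, 2 were higher and 5 lower of 8 (median −0.64, over all genes 34.4% and 43.2%), with H3f3a, an H3.3 gene, at 1.13 ± 0.17 (limma adjusted p = 0.000435). Among the lower, H2afx, H2afy2 and H2afz met the minimum through mESC 1FA alone, so their direction was fixed. After actinomycin D 4 were higher and 1 lower of 9 (median 0.67, over all genes 19.5% and 41.3%), and in mOPC NPM against mESC NPM 0 higher and 1 lower of 9 (median 0.08, over all genes 30.3% and 21%).

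Histone chaperones, which carry histones to chromatin, were lower in mOPC 1FA in 9 of 13 genes and higher in 0 (median −1.24), beside 43.2% lower and 34.4% higher over all genes, with Chaf1a, the large subunit of CAF-1, at −2.63 ± 0.23 (limma adjusted p = 1.66e-05). Chaf1a met the minimum in both groups, whereas Asf1b, listed at 0 in mOPC 1FA, met it through mESC 1FA alone. In the NPM libraries 8 of 14 were lower in mOPC (median −0.72), beside 21% over all genes. Against 1FA, mESC NPM had 6 higher and 5 lower of 14 (median 0.26), with Nasp, an H3-H4 chaperone, at 2.30 ± 0.25 (limma adjusted p = 4.69e-05), mOPC NPM 2 higher and 2 lower of 13 (median 0.47), and ActD4 3 higher and 4 lower of 14 (median 0.23). Over all genes these comparisons gave 22.6% higher and 27.2% lower, 29.7% and 25.7%, and 19.5% and 41.3%, so several of these counts are near those of all genes. Of the S-phase genes, 15 of 16 were lower in mOPC 1FA than in mESC 1FA (median −2.34) and 13 of 16 in NPM (median −1.76), 0 higher in either. Many, such as Ccne1, Cdt1 and Rrm2, which were listed at 0 in mOPC 1FA, met the minimum through the mESC libraries alone. Their direction was fixed, so the counts are descriptions. E2f3, Mcm3, Mcm5, Mcm6, Pola1 and Rrm1 met it in both 1FA groups. In mESC NPM against 1FA 10 were higher and 3 lower of 17 (median 0.60), in mOPC 6 and 2 of 11 (median 1.32), and after actinomycin D 5 and 6 of 16 (median 0.04), beside the same shares over all genes. In mESC 2FA against 1FA limma called 0 genes of all 4 lists.

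The labels of the lines were checked against marker lists. Markers of mESCs summed to 3465 to 3718 CPM in mESC 1FA and 49.8 to 61.0 in mOPC 1FA, and markers of mOPCs to 8137 to 9008 in mOPC 1FA and 8.62 to 34.8 in mESC 1FA. Most of the mOPC sum in mOPC 1FA came from Lhfpl3 (mean 6197 CPM). Pdgfra, on the same list, went the other way, with a mean of 16.8 CPM in mESC 1FA and 2.38 in mOPC 1FA. Neuron markers summed to 1253 to 1475 CPM in mOPC 1FA, with 2 of 5 genes listed and most of it from Map2, and to 54.0 to 69.2 in mESC 1FA, and astrocyte markers stood at 21.7 to 28 and myelinating oligodendrocyte markers at 71.2 to 102 in mOPC 1FA, with Mag and Aqp4 listed at 0 in every library. The part of other cell types in the differences above was not tested.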

How the data were processed

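The authors aligned RNA and DNA tags to mm10 with BWA 0.7.15-r1140 after removing ribosomal RNA and PCR duplicates (per the labels, base calls came from CASAVA 1.8), kept uniquely placed tags and assigned RNA tags to GENCODE genes by strand. They tested each pair of a transcript and a 25-kb bin with a binomial model on pooled replicates. The deposited files hold the called interactions of each library, with the centres of both tags and the authors' p-value and adjusted p-value of the pair, which were used here only as their filter. The 32 samples are the RNA and DNA sides of 15 libraries, with mESC NPM replicate 1 sequenced in a further run.

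Here exact copies were removed, Ensembl identifiers were matched to symbols, and interactions were counted per gene and library. Genes with at least 10 interactions in as many libraries as the smaller group holds, and 15 in all, were tested with limma 3.58.1 in R 4.3.3 (log2 CPM of interactions, TMM factors, prior count 0.5, intensity trend, two-sided, Benjamini-Hochberg over all genes tested). Shares were compared with two-sided exact permutation tests over libraries. Python 3.11.15, pandas 2.3.3, NumPy 2.4.6, numba 0.67.0 and matplotlib 3.10.9 were used, and the fit was tested on simulated data. As the files give tag centres, the 3′ end of an RNA tag was taken 13 nt past its centre, within 5 nt for the annotated end.

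The members and lists were chosen with earlier results of these data known. Members named are up to 25 with the most interactions over group means and, per comparison, up to 4 called in each direction. Other genes named are up to 4 called per list and direction and, for DNA tags, up to 5 RNAs per group. Further members, the stem-loop and coding-start values, and the alternatives that counted exact copies, left out the 3 members with a span over 5 kb or used the stem-loop end were chosen after seeing the data. Replicate numbers paired the libraries of mESC 2FA and 1FA (correlations of deviations 0.391, 0.232 and 0.407) and not those of mOPC and mESC 1FA (0.0538, 0.0533 and 0.0438).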

Additional observations from a re-analysis of the deposited data

Results flagged for a closer look

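For 5 of 17 histone genes tested, NPM against 1FA differed between the cell types by limma's interaction term, at an adjusted p under 0.05. This is near the background, since 33% of all 12213 genes passed, and is no result about histone genes as a group. The adjusted p was 0.0111 for Hist1h1b, 5.81e-06 for Hist1h4b, 0.0092 for Hist1h4c, 0.000104 for Hist1h4f and 0.012 for Hist1h4h. The H4 genes were listed at 0 in 1FA of both cell types, so their difference is that of the NPM libraries, and Hist1h1b was listed at 0 in mOPC 1FA alone.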

How the results depend on the processing

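For the shares, 442 of 457 alternative values over 42 results did not reverse and 15 did. Results with a difference of 0, such as all those with another block, had no direction to keep and could not reverse. Their alternatives are counted among the 442, so this count overstates how many results kept a direction. With each pair of transcript and bin counted once, the same-block difference in ActD4 was 11.1 points and the mOPC difference in DNA tags of histone genes 0.00136 points. At the annotated end, where shares are near 0, the reversed differences were, with a window of 2 nt, 0.00326 in mESC NPM and 0.00163 over both cell types, and with 20 nt, 0.216 in 2FA, 15.2 in ActD4, 0.934 in mESC NPM and 0.731 over both. At the stem-loop end they were 0.952 in mOPC 1FA, 3.77 in 2FA, 67.6 in mESC NPM and 49.7 over both. Leaving out 1 library moved the 2FA difference at the annotated end between −0.594 and 0.193.

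For the counts of histone genes called, 52 of 66 alternatives stayed within 1.5 times. Without the minimum on counts, more genes were tested. For mOPC against mESC 1FA, 11 of 17 histone genes were called, beside 11692 of all 15400 genes. For 2FA it was 4 of 21 (3 higher, 1 lower), beside 2081 of 15445, and for ActD4 14 of 17, beside 10283 of 14349. For mESC NPM it was 22 of 25 (20 higher, 2 lower, Hist2h3c2 and Hist2h2bb), beside 8904 of 14681. For mOPC NPM against 1FA it was 16 of 17, beside 9060 of 15041. Without own-gene contacts, fewer genes were left to test. The calls were then 1 of 1 for mOPC against mESC 1FA (over all genes 6920 of 8691) and 3 of 4 for ActD4 (4822 of 8081). They were 5 of 5 for mESC NPM against 1FA (5976 of 8072) and 1 of 2 for mOPC NPM against mESC NPM (311 of 412). No histone gene was left to test in mOPC NPM against 1FA, and Hist1h1b in mESC NPM reversed to −3.73. Leaving out 1 library gave 3 to 8 calls in mOPC NPM against 1FA, 2 to 14 in mOPC NPM against mESC NPM, 4 to 6 in mOPC against mESC 1FA, 5 to 7 in ActD4 and 13 to 17 in mESC NPM.

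With the replicate block, which pairs libraries by number, the calls were 5, 0, 6, 14, 9 and 13 for mOPC against mESC 1FA, 2FA, ActD4, mESC NPM, mOPC NPM and mOPC NPM against mESC NPM, each within 1.5 times the value without it. In the same order, 7958, 451, 5149, 4147, 6498 and 6021 genes were called over all genes tested. The share of histone RNA in 2FA differed by 0.00159 points with the block. Of 249 alternatives for named fold changes, 40 kept the direction but no longer passed the test, many of them where a single mOPC NPM library was left. Hist1h2bc in mESC NPM lost its call under the alternatives named with it above. The ActD4 and mOPC 1FA values rest on 3 to 43 histone interactions per library, and the part of depth in them was not tested.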
